A study of Mus musculus with 8 samples.

Results

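The 8 genes described here act in meiotic recombination: Spo11, Mei1, Hormad1, Dmc1, Psmc3ip, Msh4, Msh5 and Mlh3. They were followed in RNA of whole testicular cells from male mice, on 4 arrays of Vrk1 mutant mice (genotype VRK1-/-) and 4 arrays of wild-type mice (VRK1+/+). The members were found by their gene name on a 1-colour Agilent array, which gave 13 probes of 7 genes. Dmc1 carries an older name on the array (Dmc1h) and was matched through its RefSeq transcript, which added 1 probe. Of 41174 distinct probes on the array, 14 therefore belonged to the 8 genes, and 13 of these passed the filter on dim signals. The labels name 4 biological replicates of each genotype. The sources used here do not state the age of the mice, their strain, the kind of Vrk1 allele or the number of animals behind each RNA. VRK1 is a nuclear serine/threonine kinase, and its mutation is named as a genotype only.

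Meiotic recombination starts when SPO11 cuts both strands of the DNA in early prophase, on chromosomes organised along a protein axis. The cut ends are trimmed to single strands, on which recombinases such as DMC1 search for the homologous chromosome, and some of the resulting joint molecules are made into crossovers by the MutS and MutL homologues. In male mice the absence of several of these proteins stops spermatocytes before they divide.

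In the mutant, Psmc3ip and Mlh3 fell, and none of the 8 genes rose. Psmc3ip, a cofactor of the recombinases, was 1.49-fold lower (log2 difference -0.57, SE 0.19) and Mlh3, a MutL homologue of the crossover step, was 1.40-fold lower (-0.48, SE 0.14), with 4 arrays per genotype. The other 6 genes did not pass the test, with differences between -0.78 for Msh4 and 0.05 for Dmc1. The 2 calls are 25% of the 8 genes. Over all 23962 genes tested, 12.2% were called lower and 21.6% higher in the mutant. Differences are mutant minus wild type on the log2 scale, and calls are from limma across all probes, at a Benjamini-Hochberg adjusted p under 0.05.

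The probes behind these results are 60 bases long. The sequences shown are those of the genes that were called, of Hormad1, whose probes lie 4961 bases apart, and of Msh4, which had the largest difference. Where a probe has no reading frame free of stop codons, its first 30 bases are shown.
Psmc3ip A_51_P256706: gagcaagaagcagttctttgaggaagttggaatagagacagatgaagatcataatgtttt
Psmc3ip A_52_P238044: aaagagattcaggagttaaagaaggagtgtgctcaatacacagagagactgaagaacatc
Mlh3 A_51_P342786: gtttatttctttgcatccatgcacacagga
Mlh3 A_52_P413661: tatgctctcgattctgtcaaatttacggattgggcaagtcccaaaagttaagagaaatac
Hormad1 A_51_P497875: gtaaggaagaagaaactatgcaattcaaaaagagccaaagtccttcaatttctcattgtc
Hormad1 A_51_P497870: cttcgtcaatttaggaaaacaataaatgca
Msh4 A_51_P288855: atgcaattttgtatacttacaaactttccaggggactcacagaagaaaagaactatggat

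The array's own coordinates are on mouse build mm7. The Psmc3ip probes lie on the minus strand at chr11:101201455-101201589 and chr11:101201944-101202003, with 354 bases between them. The first of these covers 135 genomic bases with a 60-base probe. The Mlh3 probes lie on the minus strand at chr12:83235248-83235307 and chr12:83268570-83268629, 33262 bases apart, in a gene that RefSeq gives 36182 bases on GRCm38. The Msh4 probe covers 2422 bases at chr3:153771540-153773961 on the minus strand. The Hormad1 probes lie on the plus strand at chr3:95454122-95454181 and chr3:95459143-95459522. In all, 5 of the 14 probes span more genomic bases than their length. No other probe of the array shares the sequence of a member probe.

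Both Vrk1 probes were low in all mutant arrays. The probe A_51_P102339 averaged -2.97 ± 0.19 in the mutant and -0.71 ± 0.16 in wild type (log2 level, SD, n = 4 each), which was 4.78-fold lower. Levels are log2 of a probe's signal over the array's 75th percentile of non-control signals. That percentile was 996 ± 87.3 intensity units in the mutant and 719 ± 51.3 in wild type, and 84.3% ± 1.47 of non-control features in the mutant and 76.1% ± 1.93 in wild type were well above background (SD, n = 4 each). No spot was saturated. The 4 arrays of a genotype shared a slide and a scan that held no array of the other genotype, and the effects of slide and genotype cannot be told apart. The number of arrays limits the precision, and because the labels do not tie arrays to animals, p-values measure the spread between these samples.

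Among the genes of break formation, neither Spo11 nor Mei1 passed the test. Spo11, the topoisomerase-like enzyme that makes the breaks, is measured by A_52_P660477 at chr2:172736438-172736497 and A_51_P290542 at chr2:172737758-172737817. With the brighter probe, A_52_P660477, its log2 level was 0.59, 1.11, 1.05 and -0.22 in mutant replicates 1 to 4, against 1.67, 0.92, 0.85 and 0.42 in wild-type replicates 1 to 4. The groups overlapped, since mutant replicates 2 and 3 lay above 3 of the wild-type arrays. The difference was -0.33 (SE 0.33; limma adjusted p = 0.453). The other probe gave -0.37 (SE 0.30; limma adjusted p = 0.357).

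Mei1 encodes a protein needed for meiotic breaks to form in mice. Its probe, A_51_P406835 at chr15:82211102-82211161, read 0.45, 0.86, 0.97 and 0.48 in the mutant arrays, against 1.29, 1.20, 1.07 and 0.69 in the wild-type arrays. Wild-type replicate 4 lay below mutant replicates 2 and 3, and the other wild-type arrays lay above every mutant array. The difference was -0.37 (SE 0.18; limma adjusted p = 0.139). Without wild-type replicate 4 the limma adjusted p was 0.0492. It stayed above the threshold without any other single array, at up to 0.286.

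**Figure D1:**
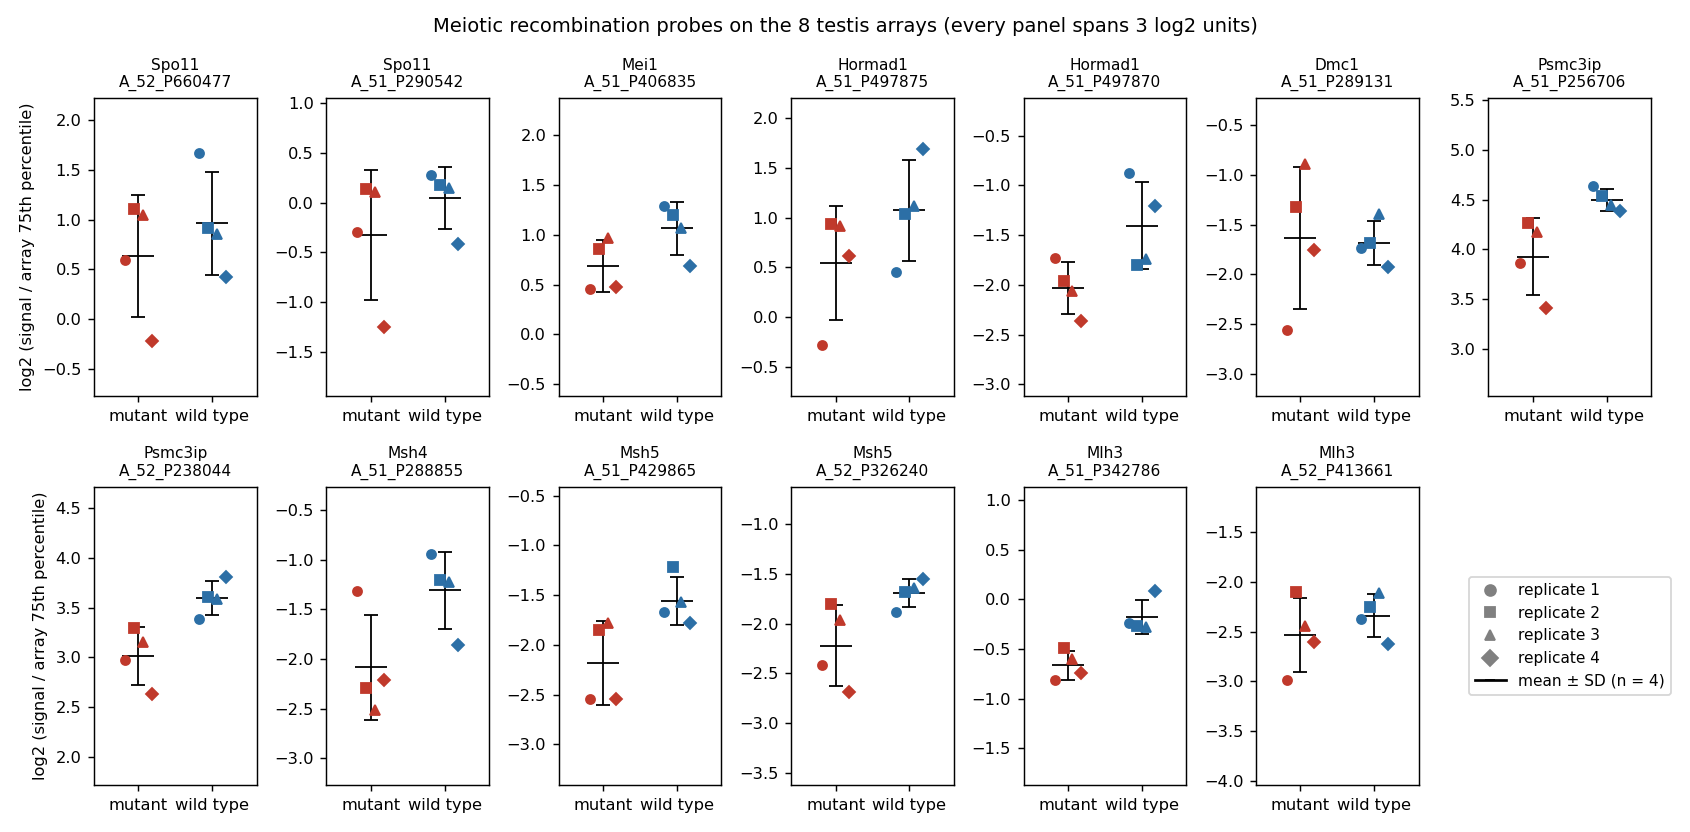
Log2 level (signal over the array's 75th percentile) of the 13 tested probes on every array, mutant (red) left of wild type (blue), with group mean and SD (n = 4 each); every panel spans 3 log2 units. Both Psmc3ip probes, Msh5 A_51_P429865 and Mlh3 A_51_P342786 have groups that do not overlap, and Dmc1 has means of -1.63 in the mutant and -1.68 in wild type.

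Hormad1 encodes a HORMA domain protein that sits on unsynapsed chromosome axes and is needed for normal numbers of breaks and for synapsis checks. Its brighter probe, A_51_P497875, read -0.29, 0.93, 0.91 and 0.62 in the mutant arrays, against 0.45, 1.03, 1.11 and 1.69 in the wild-type arrays. Replicate 1 was the lowest array in both genotypes, and the groups overlapped. The difference was -0.53 (SE 0.32; limma adjusted p = 0.221). The other probe, A_51_P497870, read -1.73, -1.96, -2.06 and -2.37 in the mutant arrays, against -0.87, -1.80, -1.74 and -1.21 in the wild-type arrays. Its difference was -0.63 (SE 0.23; limma adjusted p = 0.0619), and mutant replicate 1 lay within the wild-type range.

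Of the 2 genes of strand exchange, Psmc3ip fell and Dmc1, the meiosis-specific recombinase, did not pass the test. Its probe, A_51_P289131 at chr15:79646126-79646185, read -2.56, -1.32, -0.89 and -1.75 in the mutant arrays, against -1.73, -1.68, -1.39 and -1.92 in the wild-type arrays. The mutant arrays included both the lowest and the highest values of all 8. The difference was 0.05 (SE 0.31; limma adjusted p = 0.912), with an SD of 0.71 in the mutant and 0.22 in wild type.

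Psmc3ip encodes HOP2, which with MND1 helps DMC1 to join homologous DNA. Its brighter probe, A_51_P256706, read 3.87, 4.26, 4.17 and 3.41 in the mutant arrays, against 4.64, 4.53, 4.45 and 4.38 in the wild-type arrays. All mutant arrays lay below all wild-type arrays, and mutant replicate 4 was the lowest. The mean was 3.93 ± 0.39 in the mutant and 4.50 ± 0.11 in wild type (SD, n = 4 each; limma adjusted p = 0.0464). The other probe, A_52_P238044, read 2.97, 3.30, 3.15 and 2.63 in the mutant arrays, against 3.38, 3.60, 3.58 and 3.80 in the wild-type arrays. It was 1.50-fold lower (difference -0.58, SE 0.17; limma adjusted p = 0.0305), again with no overlap.

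The Psmc3ip call lay close to the threshold. It was kept when mutant replicate 2 was left out (limma adjusted p = 0.0317) and lost when any other single array was left out, with adjusted p up to 0.0996. The difference was -0.24 after quantile normalization (limma adjusted p = 0.318) and -0.21 after cyclic loess (0.328). Among the 4041 tested genes with a mean log2 level of 2 or above, where Psmc3ip lies, the median difference was -0.39 and 31.8% were called lower.

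All 3 crossover genes had negative differences, and of these only Mlh3 passed the test. Its product acts at crossover sites. Its brighter probe, A_51_P342786, read -0.81, -0.49, -0.60 and -0.75 in the mutant arrays, against -0.24, -0.27, -0.28 and 0.08 in the wild-type arrays. No mutant array reached the wild-type range. The mean was -0.66 ± 0.15 in the mutant and -0.18 ± 0.17 in wild type (SD, n = 4 each; limma adjusted p = 0.0296). In the range of log2 levels from -2 to 0, where this probe lies, 8.66% of 5298 genes were called lower and the median difference was 0.04.

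The other Mlh3 probe did not give a call. A_52_P413661 read -2.98, -2.10, -2.44 and -2.60 in the mutant arrays, against -2.37, -2.25, -2.11 and -2.62 in the wild-type arrays. The groups overlapped, and the difference was -0.19 (SE 0.20; limma adjusted p = 0.467). Mlh3 lies on chromosome 12, as Vrk1 does, with 20.3 Mb between their probes on mm7. The Mlh3 call was lost without mutant replicate 1, 3 or 4 and without wild-type replicate 2 or 3, with limma adjusted p up to 0.0767.

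Msh4 and Msh5 encode the partners of the MutS-gamma complex, which stabilises joint molecules that become crossovers. The Msh4 probe read -1.31, -2.30, -2.51 and -2.21 in the mutant arrays, against -0.94, -1.20, -1.23 and -1.85 in the wild-type arrays. Mutant replicate 1 lay within the wild-type range, and the other mutant arrays lay below it. The difference was -0.78 (SE 0.28; limma adjusted p = 0.0584). Without mutant replicate 1 it was -1.03 (limma adjusted p = 0.0201), and without wild-type replicate 4 it was -0.96 (0.0278). Leaving out any other single array gave no call, with differences from -0.75 to -0.63 and limma adjusted p up to 0.150.

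Msh5 has 3 probes. The brightest, A_51_P429865 at chr17:33125919-33126321, read -2.54, -1.85, -1.78 and -2.55 in the mutant arrays, against -1.67, -1.21, -1.57 and -1.78 in the wild-type arrays. The groups did not overlap, although mutant replicate 3 and wild-type replicate 4 are equal at 2 decimals. The difference was -0.62 (SE 0.22; limma adjusted p = 0.0553). The limma adjusted p was 0.0458 without mutant replicate 2, 0.049 without mutant replicate 3 and 0.0495 without wild-type replicate 4. It stayed above the threshold without any other single array, at up to 0.137. The probe A_52_P326240, at chr17:33141512-33142246 and 15190 bases away, gave -0.53 (SE 0.20; limma adjusted p = 0.0705) with overlapping groups. The third, A_52_P297836 at chr17:33141661-33141720, was not well above background on any of the 8 arrays and was not tested.

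**Figure D2:**
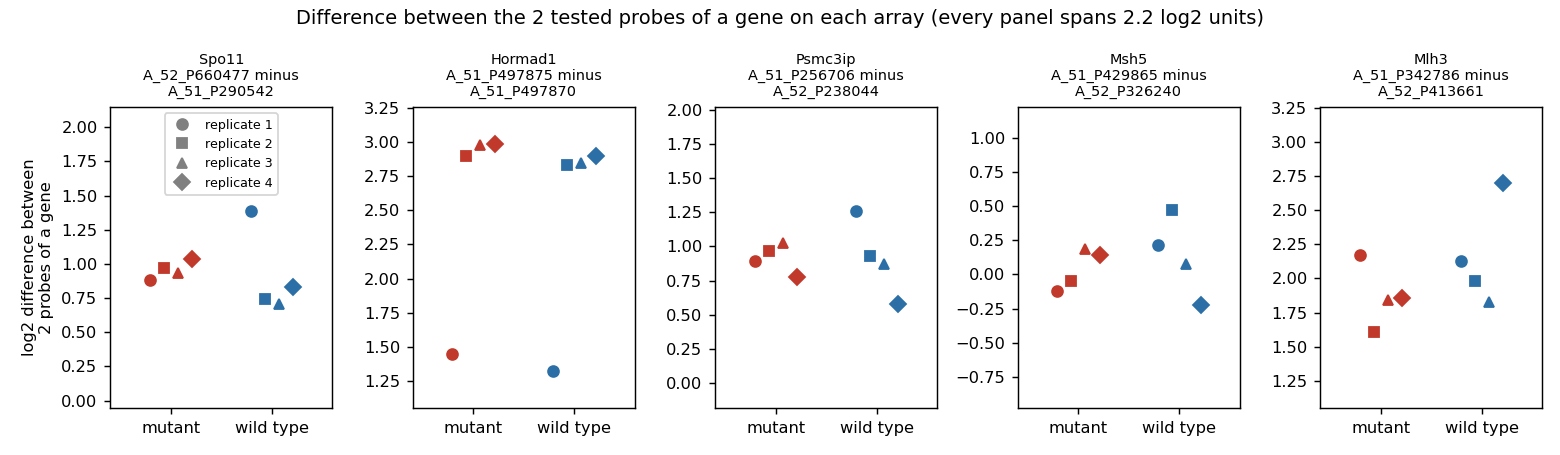
Log2 difference between the 2 tested probes of each of 5 genes on every array, mutant (red) left of wild type (blue), with a symbol for each replicate number. The genotypes overlap in every panel, and for Hormad1 replicate 1 lies apart in both, at 1.45 in the mutant and 1.32 in wild type.

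The probes of a gene were compared directly. For 5 genes the difference between its probes was taken on each array and compared between genotypes (exact permutation test, two-sided, 70 arrangements of the arrays). The largest gap was that of Mlh3, where the brighter probe's difference was 0.29 more negative (-0.29; exact permutation p = 0.286). Adjusted over the 5 pairs, every exact permutation p was 0.943. With 70 arrangements and 5 pairs, the adjusted test could not bring a single differing pair under 0.05. A difference between the Mlh3 probes was thus not shown, although one was called and the other was not.

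Together, 7 of the 8 genes had a difference below 0, with a median of -0.51, beside a median of 0.04 over all 23962 genes tested. Of the 13 tested probes, 12 had a difference below 0 and 3 were called lower, where 10.8% of all tested probes were. The groups did not overlap for 3 of the 8 genes, all lower in the mutant, where 15.2% of all genes had non-overlapping groups with the mutant lower. Over the 12157 genes within the level range of the 8 genes, the median difference was -0.16, and 16.4% were called lower and 16.9% higher.

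The scaling of the arrays moved these differences. The median of the 8 genes lay 0.54 below that of all genes (-0.54) with scaling to the 75th percentile, the array median or the E1A spike-in probes. It lay at -0.34 relative to all genes after quantile normalization, -0.33 after cyclic loess and -0.25 after normexp background correction. The median of all genes was -0.18 with scaling to the array median and -0.22 with normexp, and between -0.05 and 0.04 with the other scalings drawn. The Dmc1 difference lay between -0.17 and -0.0064 with these 5 alternatives, all within its SE of 0.31 of the main value. Scaling to the array median or the spike-ins shifts all genes by nearly the same amount. The share of all genes called lower moved too. It was 12.2% with the 75th percentile, 27.8% with the array median, 9.87% after quantile normalization, 8.1% after cyclic loess and 9.67% with normexp. Scaling to the array median called 5 of the 8 genes lower, quantile normalization 3, cyclic loess 2 and normexp 3. When dim E1A spike-in spots were held at the floor used for all probes, and outlier spots dropped, the count was 0. It was 4 when they were bounded at a signal of 1 and outlier spots kept. Of all genes, 8.46% were called lower in the former spike-in version and 19% in the latter. Which of these choices moved the count was not tested.

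**Figure D3:**
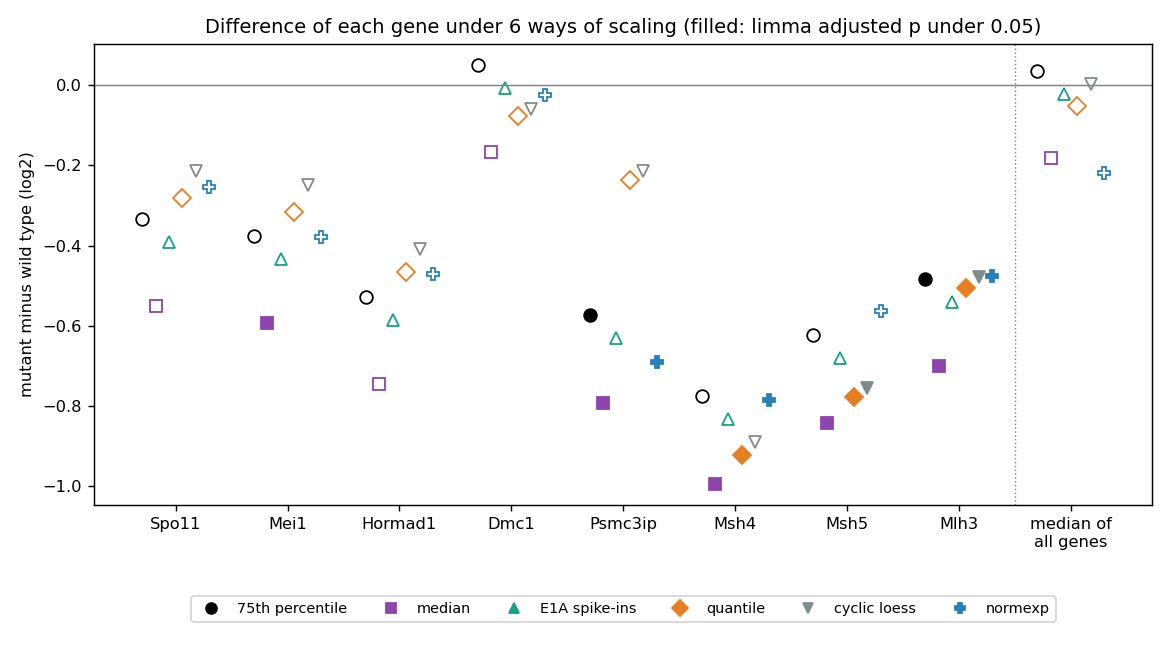
Difference, mutant minus wild type (log2), of each gene and of the median of all genes under 6 ways of scaling, with filled symbols where the limma adjusted p is under 0.05; the E1A points use the floor of the main scaling. Msh4, Msh5 and Mlh3 stay below -0.4 under all 6, Psmc3ip lies at -0.24 under quantile normalization and -0.21 under cyclic loess, and Dmc1 lies between -0.17 and 0.05.

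The mutant arrays differed among themselves. The mean deviation of the 8 genes from their wild-type means was -0.69, -0.21, -0.19 and -0.73 in mutant replicates 1 to 4, against 0.07, 0.05, 0.02 and -0.15 in wild-type replicates 1 to 4. Mutant replicates 1 and 4 were thus the lowest arrays. With both left out, none of the 8 genes was called by limma, the Psmc3ip difference was -0.28 (limma adjusted p = 0.243), the Mlh3 difference was -0.37 (0.196), and that of Spo11 was on the other side of 0, at 0.11. That comparison of 2 mutant with 4 wild-type arrays called 220 probes lower and 1318 higher over the whole array.

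Levels of markers of other cells differed between the genotypes, and 2 of the epididymis, Crisp1 and Spink8, set mutant replicates 1 and 4 apart. Of 8 epididymal markers, 4 were tested and 2 rose. Their summed level, in multiples of the 75th percentile, was 14.2, 0.974, 0.835 and 10.7 in mutant replicates 1 to 4, against 0.430 to 0.534 in the wild-type arrays. Crisp1 read 2.50, -2.40, -4.20 and 2.80 in the mutant arrays, against -5.56 to -4.98 in the wild-type arrays. Spink8 read 3.02, -1.23, -1.33 and 1.74, against -4.10 to -2.91. The other 2 tested epididymal markers, Cst11 and Rnase10, did not pass the test. Their differences were 0.25 (limma adjusted p = 0.219) and 0.12 (0.692). Of 12 Sertoli cell markers, 10 rose, with a mean log2 level of 1.78, 1.22, 1.61 and 1.66 in mutant replicates 1 to 4, against 0.55 to 0.84 in the wild-type arrays. By this mean, mutant replicates 1 and 4 were the highest arrays, with mutant replicate 3 close to replicate 4. Their summed level was 138 to 211 in the mutant and 64.1 to 97.5 in wild type. By the sum, mutant replicates 1 and 3 were the highest (211 and 177). Of 6 tested Leydig cell markers, 2 rose, and all 6 had a difference above 0, with a median of 0.85. Their mean log2 level was 2.95, 2.51, 2.89 and 3.05 in mutant replicates 1 to 4, against 1.79 to 2.27 in the wild-type arrays. These counts of markers that rose stand beside 21.6% of all tested genes called higher. The part of these cells in the result was not tested.

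The germ cells in which recombination takes place were followed by markers that are not among the 8 genes. Of 8 genes of early meiotic prophase, which encode cohesin subunits and proteins of the axis and the central region of the synaptonemal complex, 4 fell and none rose, with a median difference of -0.62. Their mean log2 level was 3.24, 3.84, 3.78 and 3.28 in mutant replicates 1 to 4, against 3.94 to 4.18 in wild type, so that mutant replicates 1 and 4 were lowest here too. Of 8 markers of late spermatocytes, 6 fell, with a median of -0.61, and of 4 genes expressed throughout the germ line, 3 fell, with a median of -0.57. Mutant replicates 1 and 4 were lowest in both lists as well. Mutant replicates 1 to 4 read 3.02, 3.44, 3.30 and 2.98 for late spermatocytes, and 3.31, 3.99, 3.94 and 3.57 for the germ line. In the lists of round and elongating spermatids, mutant replicate 3 lay below mutant replicate 1. After meiosis, 3 of 6 markers of round spermatids fell, with a median of -0.57. For elongating spermatids it was 1 of 4, with a median of -0.31. Among all genes with a level of 2 or above, where most of these markers lie, 31.8% were called lower and the median difference was -0.39. Markers of earlier germ cells went in both directions. Of 5 tested markers of undifferentiated spermatogonia 3 rose and none fell, with a median of 0.58. The 3 that rose, Etv5, Nanos3 and Lin28a, had levels below -2, where 29.4% of all genes were called higher. The median difference of genes at that level was 0.33. The other 2, Gfra1 and Id4, had differences of -0.19 and -0.59 and did not pass the test. Of 5 tested markers of differentiating spermatogonia 2 rose and 1 fell, with a median of 0.20, where 21.6% of all tested genes were called higher and 12.2% lower. In whole testicular cells, fewer cells of a type and less RNA per cell cannot be told apart. The part of cell composition in the differences of the 8 genes was not tested.

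**Figure D4:**
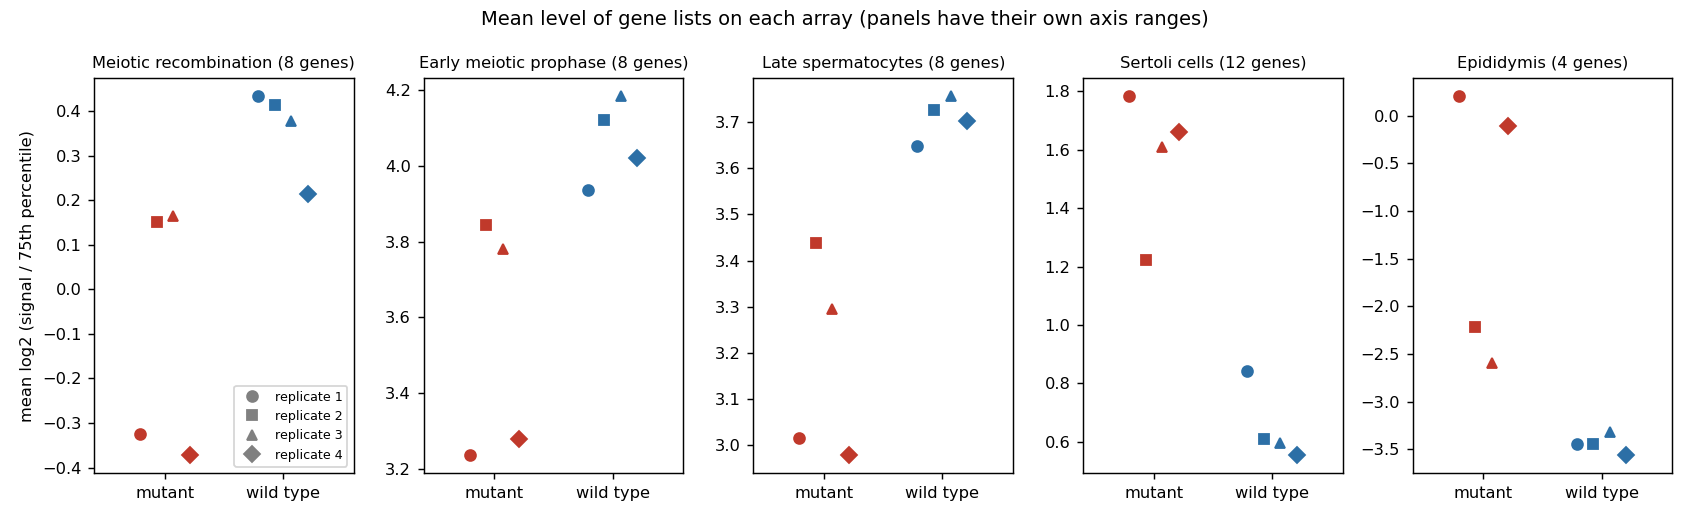
Mean log2 level of the 8 recombination genes and of 4 marker lists on each array, mutant left of wild type, with a symbol for each replicate number and a separate vertical range in each panel. Mutant replicates 1 and 4 are lowest for the recombination, early prophase and late spermatocyte genes and highest for the epididymal and Sertoli cell markers.

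Other genes of the pathway were counted from a list of 49, of which 37 had a probe and 35 were tested. Of the 35, 6 fell, 1 rose and 28 did not pass the test, and 27 had a difference below 0, with a median of -0.34. Their mean log2 level was -0.27, 0.21, 0.23 and -0.05 in mutant replicates 1 to 4, against 0.25 to 0.32 in wild type. Over all genes tested, 12.2% were called lower and 21.6% higher, and within the level range of the 8 genes 16.4% were called lower. The break formation genes Prdm9 and Mei4 had no probe that passed the filter. In end processing, 3 of 5 genes fell, in strand exchange 1 of 15 fell and 1 rose, in crossover formation 2 of 11 fell, and none of 2 in break formation and none of 2 on the chromosome axis was called.

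The smallest p-value among the genes that fell was that of Slx4, a scaffold of structure-specific nucleases. It read 3.98, 4.19, 4.07 and 4.00 in the mutant arrays, against 4.53, 4.80, 4.63 and 4.89 in the wild-type arrays. The difference was -0.65 (SE 0.13; limma adjusted p = 0.00801), with no overlap. Rpa1, the large subunit of the single-strand binding complex, read 3.39, 3.92, 3.67 and 3.32 in the mutant arrays, against 4.39, 4.20, 4.11 and 4.49 in the wild-type arrays (difference -0.72, SE 0.17; limma adjusted p = 0.0132). Nbn, of the complex that trims break ends, had a difference of -0.56 (SE 0.15; limma adjusted p = 0.0209), and its other probe gave -0.30 (0.265). The remaining genes that fell were Mre11 (-0.53), Rbbp8 (-0.52) and Hfm1 (-0.49). Slx4, Rpa1, Nbn and Rbbp8 had mean levels of 2 or above, where 31.8% of genes were called lower and the median difference was -0.39. Mre11 and Rbbp8 each have another probe with a positive difference that did not pass the test, 0.47 (limma adjusted p = 0.0853) and 0.71 (0.110). On that Mre11 probe every mutant array lay above every wild-type array, while on the brighter Mre11 probe every mutant array lay below. The Mre11 probes thus went in opposite directions. That Rbbp8 probe was dim, with a mean log2 level of -4.81 and wild-type replicate 1 at the floor of -6.12. A further Mre11 probe gave -0.36 (limma adjusted p = 0.141).

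Hsf2bp was the gene that rose. It encodes a protein needed for loading recombinases in meiosis. Its probe read -1.79, -1.61, -1.81 and -1.74 in the mutant arrays, against -2.15, -2.63, -2.89 and -3.03 in the wild-type arrays. The groups did not overlap, and it was 1.92-fold higher (difference 0.94, SE 0.19; limma adjusted p = 0.00779). Among genes with levels below -2, where this probe lies, 29.4% were called higher.

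The genes Mnd1, Hormad2 and Trip13, whose products act with or on those of the 8 genes, did not pass the test. Mnd1, the partner of Psmc3ip, had a difference of -0.05 (SE 0.22; limma adjusted p = 0.868) with overlapping groups. The axis protein gene Hormad2 had a difference of -0.37 (SE 0.29; limma adjusted p = 0.333), and Trip13, whose product removes HORMA domain proteins from the axis, had 0.08 (SE 0.17; 0.748).

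**Figure D5:**
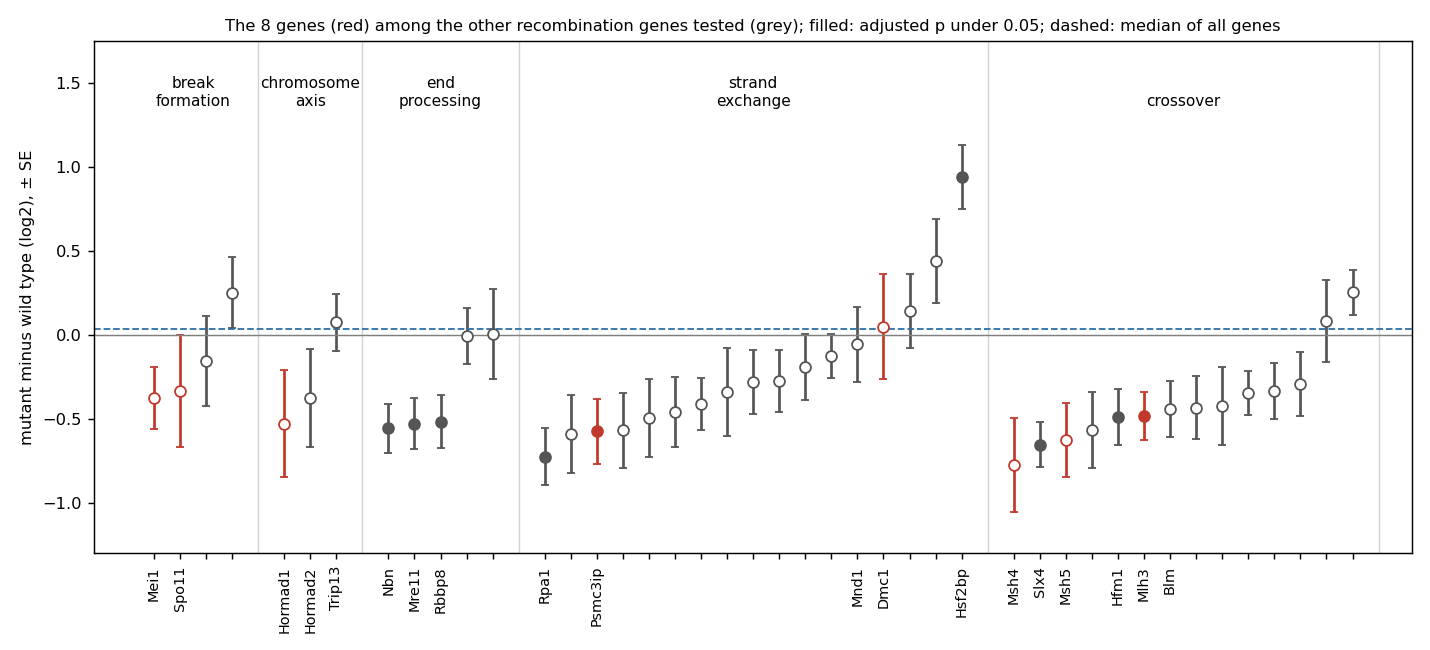
Difference, mutant minus wild type (log2), of the 8 genes and of the 35 other tested recombination genes, arranged by role, with standard errors, filled points where the limma adjusted p is under 0.05, and a dashed line at the median of all genes; the 8 genes and those named in the text are labelled. The calls are 2 lower among the 8 genes, and 6 lower and 1 higher among the 35.

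The promoters of 7 of the 8 genes were found in RefSeq (build GRCm38.p6), as windows of 300 bases. They were searched on both strands for the E2F motif TTCCCGC, the E-box CACGTG, the core CCTCAG bound by STRA8 and the MYB core AACNG; no motif contains another. Hormad1 and Msh5 held the E2F motif, which 4.6% of 32851 promoters held, and the same genes held CCTCAG, which 26.8% held. Hormad1 also held the E-box, which 7.15% held. The MYB core was in the windows of all 7 genes and in 80.3% of all promoters. Those of Psmc3ip and Mlh3, the genes called, held none of the first 3 motifs in this window. Neither did those of Msh4, Dmc1 and Mei1, which were not called. The Msh4 window (chr3:153904842-153905141, minus strand) lies inside a gene that RefSeq ends at 153906138. That of Mei1 (chr15:82082226-82082525, plus strand) lies inside a gene that begins at 82070074. The outermost starts of these genes were therefore not searched. The 250 bases before the start are shown for the pair with matches and for Psmc3ip, with matches to those 3 motifs in capitals, at chr3:95559427-95559676 on the plus strand for Hormad1, chr17:35046623-35046872 on the minus strand for Msh5 and chr11:101095436-101095685 on the minus strand for Psmc3ip.
Hormad1: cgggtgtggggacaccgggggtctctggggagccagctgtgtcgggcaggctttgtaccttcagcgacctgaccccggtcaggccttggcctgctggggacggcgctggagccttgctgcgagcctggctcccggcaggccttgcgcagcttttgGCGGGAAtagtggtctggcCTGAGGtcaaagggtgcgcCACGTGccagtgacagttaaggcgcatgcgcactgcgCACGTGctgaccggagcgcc
Msh5: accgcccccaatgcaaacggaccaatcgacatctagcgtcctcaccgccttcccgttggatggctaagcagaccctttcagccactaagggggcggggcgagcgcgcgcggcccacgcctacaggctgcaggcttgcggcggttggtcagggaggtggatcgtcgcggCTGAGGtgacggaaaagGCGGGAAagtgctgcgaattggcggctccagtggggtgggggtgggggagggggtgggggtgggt
Psmc3ip: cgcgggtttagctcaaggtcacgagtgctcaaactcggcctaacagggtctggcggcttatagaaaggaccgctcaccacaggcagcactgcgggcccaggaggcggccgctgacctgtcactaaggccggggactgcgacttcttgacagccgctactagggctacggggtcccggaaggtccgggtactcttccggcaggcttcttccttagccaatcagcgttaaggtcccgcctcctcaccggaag

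Counted in bases from the transcript's start, the E2F match begins at -95 in Hormad1 and at -65 in Msh5, and CCTCAG matches begin at -76 and 38 in Hormad1 and at -82 in Msh5. The E-boxes of Hormad1 begin at -57 and -20. No binding was measured here, and Hormad1 and Msh5 did not pass the test between genotypes.

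The 8 genes varied in how closely they followed their mean pattern over the 8 arrays. As the root-mean-square distance of a gene's deviations from the mean deviations, Mei1 lay at 0.12 and Psmc3ip at 0.14, Msh5 at 0.19 and Mlh3 at 0.20. Spo11 at 0.37, Hormad1 at 0.45, Dmc1 at 0.48 and Msh4 at 0.54 lay farther away. Outside the 8 genes, the named genes nearest to the mean pattern over the 8 arrays were Cdk14 at 0.037, the helicase gene Blm at 0.041, 2610301B20Rik at 0.058, Ddx51 at 0.059 and Zfp638 at 0.061. The median distance over 17016 genes was 0.459.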

How the data were processed

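Signals were read from 8 Agilent 1-colour arrays, 4 mutant and 4 wild type. Per the submitters' processing notes, the deposited intensity values came from Agilent Feature Extraction 9.5.3.1, and per the file headers they were background-subtracted and not scaled between arrays. The deposited series table held the same processed intensity on a linear scale, uncentred, for all 45018 features. Here each processed signal was set over the array's 75th percentile of non-control features, floored and put on a log2 scale. Outlier spots were dropped and repeated probes averaged. Testing covered the 33716 probes that were well above background on 4 or more arrays, with limma (version 3.58.1, R 4.3.3), genotype as the sole term and Benjamini-Hochberg adjustment over all of them. A gene is represented by its brightest passing probe. The fit was tested on simulated data with 200 probes changed and noise drawn independently for each array. Far more probes were called in the real data, so that run does not bear on calls close to the threshold. Named genes are all members with every probe, Vrk1, the called pathway genes with the 3 smallest p in each direction, preset partners (some are not reported here), and the 5 nearest in pattern; the other values were chosen after they were seen. Members and lists were chosen with earlier results of these data known. Correlations of deviations between same-numbered arrays were 0.279, 0.235, 0.0903 and 0.609, not all above the 0.1 required, and replicate numbers were not taken as pairs. Alternatives were other scalings, filters, array weights, a replicate block and leaving arrays out. The handling of dim and of outlier E1A spike-in spots was revised after a first version had been run and its calls seen, so both versions are given.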

Additional observations from a re-analysis of the deposited data

Results flagged for a closer look

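Of 48 groups of 4 arrays checked, 2 held an array far from the other 3, and chance flags about 1 in 20 groups. The Mlh3 probe A_51_P342786 read 0.0781 in wild-type replicate 4, where the other wild-type arrays lay between -0.28 and -0.24. The Vrk1 probe A_52_P555672 read -3.73 in mutant replicate 1, where the other mutant arrays lay between -3.50 and -3.46.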

How the results depend on the processing

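No alternative called any of the 8 genes higher, and Vrk1 kept its call in 20 of 20 (-2.48 to -1.83). Msh4, Msh5, Mlh3, Psmc3ip, Hormad1 and Mei1 stayed below 0 in all 20, and of these alternatives 13 called Mlh3, 10 Msh5, 8 Msh4, 8 Psmc3ip, 2 Mei1 and 1 Hormad1. Where a call or direction changed, the cause was not tested. Scaling to the array median called 5 of the 8 genes (8 probes) and 16 other recombination genes lower, with 8768 probes lower and 4489 higher over the array, so that 33.9% of calls were higher, beside 66.2% with the 75th percentile. Quantile normalization called 2 other recombination genes lower and 4405 probes higher (56.5% of calls), cyclic loess 2 other genes lower, and normexp 0 other genes higher and 2092 probes higher (40.3% of calls); the count of 0 was by limma. With E1A spike-ins held at the floor and outlier spots dropped, 0 of the 8 genes and 1 probe were called lower. With spike-ins bounded at a signal of 1 and outlier spots kept, which was the version run first and is kept as an alternative added after the data were seen, 4 genes, 7 probes and 14 other genes were lower, with 5784 probes lower and 4750 higher (45.1% of calls higher). The choice between these versions therefore decides whether any of the 8 genes is called under spike-in scaling. Without a filter 1 gene was called, beside 9.7% of all genes called lower. Array weights gave 4 genes, 5 probes, 11 other genes lower and 3 higher, and 7599 probes lower. They called 24.4% of all genes lower. Leaving out mutant replicates 1 and 4 together gave 0 genes, 0 probes, 0 other genes lower and 0 higher, with 220 probes lower and 1318 higher, and a Spo11 difference of 0.11. The Dmc1 difference was -0.17 (median), -0.0064 and -0.10 (spike-ins with the floor and bounded), -0.076 (quantile), -0.059 (loess) and -0.023 (normexp). It was -0.052 without mutant replicate 2, -0.20 without mutant replicate 3 and -0.030 without wild-type replicate 4, in a range of -0.20 to 0.36 over single arrays left out. Leaving out 1 array gave 0 to 4 genes, 0 to 5 probes, 2 to 8 other genes lower, and 1664 to 4411 probes lower. None of the 8 genes was called without mutant replicate 4 or without wild-type replicate 2 or 3. The numbers of replicates are not shown to pair the arrays, although 7 of 8 arrays correlated best with their own number; with a replicate block 5 genes, 8 probes and 10 other genes were lower, with 5913 probes lower, and Hormad1 (limma adjusted p = 0.0489), Msh4 (0.0153) and Msh5 (0.0140) were called. The replicate block called 19.2% of all genes lower, beside 12.2% without it. All 13 tested probes were well above background on all 8 arrays.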

Other observations

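The Hormad1 probes differed in the same way between replicate numbers in both genotypes. The brighter probe minus the other was 1.45, 2.89, 2.98 and 2.98 in mutant replicates 1 to 4, and 1.32, 2.83, 2.85 and 2.90 in wild-type replicates 1 to 4. Both replicate 1 arrays lay at least 1.39 log2 units from the other 6. Among 7813 pairs of tested probes of the same transcript, 11 (0.141%) had both replicate 1 arrays at least 1 log2 unit outside the other 6. The pattern was noticed after the values were seen.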
